A study of Mus musculus with 4 samples.

Results

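The mitosis and spindle genes are 40 genes whose products carry a cell from the end of DNA replication to its separation into daughters. They were taken by symbol from a fixed list, and the transcript with the highest total count over all libraries stood for each gene. All 40 were found among the 24016 symbols of the tables and all passed the filter on low counts, so 40 of the 14853 genes tested are described here. Bulk RNA of hematopoietic stem cells, sorted from the bone marrow of C57BL/6 mice at 4 months of age, was sequenced in 2 libraries from wild-type (WT) mice and 2 from NHD13 mice. The NUP98-HOXD13 transgene of NHD13 mice is driven in blood cells by Vav regulatory elements, and these mice serve as a model of myelodysplastic syndrome. In both groups the sort kept lineage-negative cells with Sca-1, c-Kit and CD150 on their surface and without CD34 or Flt3. CD48, a surface protein of more mature progenitors, was not part of the gate.

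With 1 transcript per gene the libraries held 35025974 to 48423689 counts, and the counts of the 40 genes ran from 229 to 20969 per library with a median of 2102. Whether a group's libraries came from separate mice or pools is not in the labels. Each library held both Xist and the Y-linked Ddx3y, so n counts libraries and the tests measure the spread between libraries. Xist was at 104 and 276 CPM, that is counts scaled to library size, in WT and 665 and 392 in NHD13. Ddx3y was at 169 and 128 CPM in WT and 91.9 and 124 in NHD13. The NHD13 libraries thus lay above the WT libraries in Xist and below them in Ddx3y. The part of sex in the differences between the groups was not tested. The spread within a group exceeded counting noise (chi-square of 28.9 per gene for WT and 47.1 for NHD13, 1 degree of freedom). The NHD13 libraries held 65 and 78 counts on Hoxd13, the mouse gene of a fusion partner, against 14 and 3 for WT, and whether these reads came from the transgene was not tested.

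Mitosis begins when the kinase Cdk1, joined to cyclins of the A and B types, becomes active. Microtubules then form a spindle that is shaped by kinesin motors and attached to chromosomes at kinetochores, and a checkpoint holds the cell until every chromosome is attached. The anaphase-promoting complex (APC/C), a ubiquitin ligase, then lets sister chromatids part, and the cleavage furrow divides the cell. Transcripts of most of these genes build up only late in the cycle. Stem cells of adult marrow are mostly quiescent, so such transcripts are low in them and rise when stem or progenitor cells divide.

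Of the 40 genes 11 rose in NHD13 cells and 0 fell. Every log2 fold change of NHD13 against WT was above 0, from 0.13 for Kif23 to 1.53 for Kif11, Kif15 and Bub1, with a median of 0.94 against 0.00 over all genes tested. With edgeR's quasi-likelihood test and p-values adjusted over all genes, 11 of the 40 were called higher at an adjusted p under 0.05 and 0 lower, while 2.07 percent of genes in the fit were called higher and 2.22 percent lower. At an unadjusted p under 0.05 there were 35 of the 40, all of them higher. Over all 14853 genes tested there were 3983, counting both directions. DESeq2 called 34 higher (8.2 percent of genes tested) and 0 lower (9.33 percent), and limma-voom called 11 higher (1.8 percent). In 37 of the 40 both NHD13 libraries lay above both WT libraries, which held for 30.1 percent of all genes tested, and in Kif23, Ect2 and Anln the groups overlapped. In bulk RNA, a larger share of dividing cells and more of these transcripts per dividing cell cannot be told apart.

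**Figure D1:**
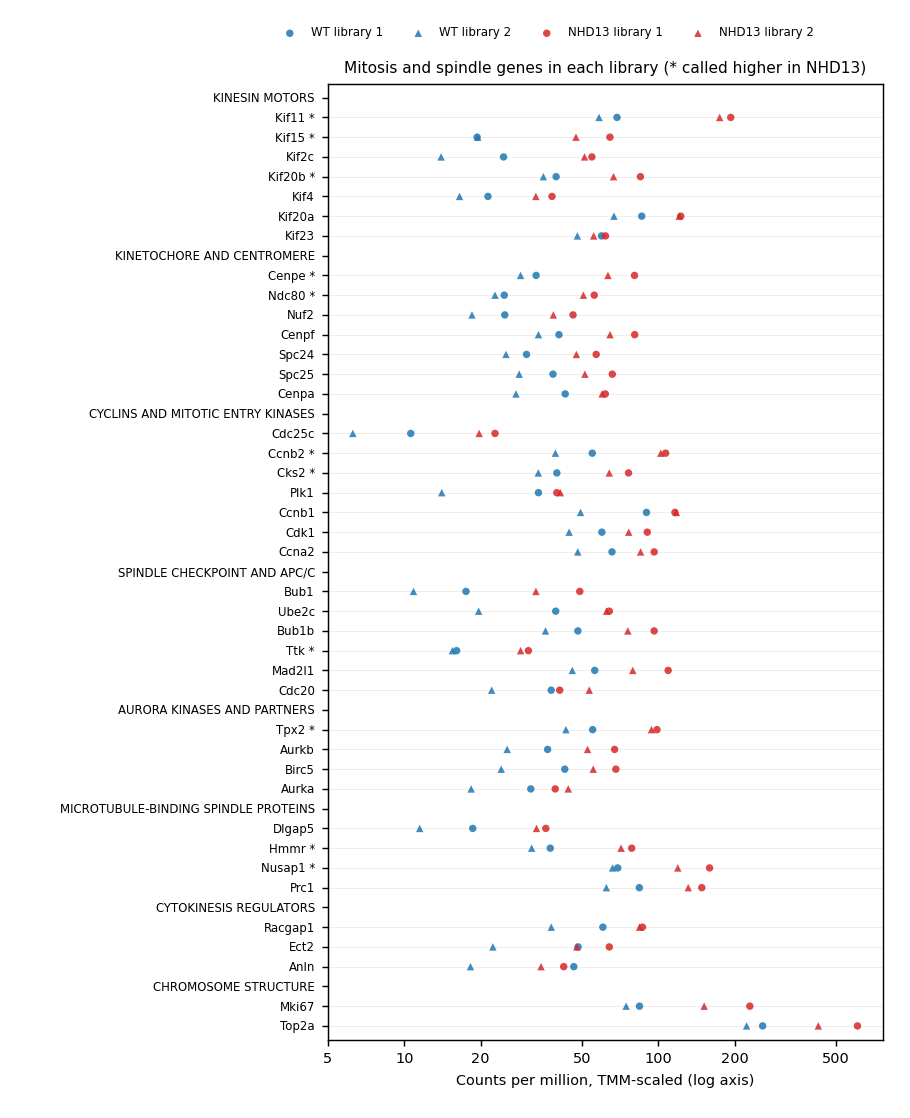
Each row is a gene, ordered by role and fold change, and the x axis gives CPM on a log axis. Circles are library 1 and triangles library 2 of each group, with WT in blue and NHD13 in red. The red symbols lie to the right of both blue symbols in 37 of 40 rows.

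The number of calls depended on the libraries kept. When either WT library was left out, edgeR called 0 of the 40 and 0 genes in the whole table (0.0 percent). The median log2 fold change of the 40 was 1.19 without WT library 1 and 0.78 without WT library 2, against 0.94 with all libraries. In these fits edgeR took the lone WT library to vary like the NHD13 libraries. Without NHD13 library 1 it called 2, Kif11 and Kif15 (0.765 percent of all genes tested were called higher), and without NHD13 library 2 it called 12 (2.88 percent). All 40 fold changes stayed above 0 without WT library 1, NHD13 library 1 or NHD13 library 2. Without WT library 2, Kif23 and Anln were below 0 and the other 38 above. Other settings of edgeR on the 4 libraries gave 11 with DESeq2 size factors (2.05 percent of all genes tested), 11 without the robust fit (1.95 percent) and 8 with library totals only (1.73 percent). They gave 22 with no filter (2.56 percent), 17 with at least 1 CPM in both libraries of a group (3.61 percent) and 6 with transcripts summed (1.26 percent). With the library number as a block 1 was called (0.444 percent), and with the numbers crossed 8 (2.01 percent).

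What the genes share beside their function was looked for in their promoters. The cell cycle homology region (CHR, letters TTTGAA or TTCGAA) is known as the element through which the DREAM complex silences mitotic genes in quiescent cells and through which related complexes activate them before mitosis, and the CCAAT box (letters CCAAT) is bound by NF-Y. RefSeq promoter windows of build GRCm38.p6, each with 250 bases before the start site and 50 from it on, were at hand for 33 of the 40 genes. Cdc25c, Aurkb, Ccna2, Spc24, Kif20a, Dlgap5 and Tpx2 were not matched. Stretches with 100 bases before the start site and 20 from it on are shown for genes of 3 roles, 4 of them called higher (Kif11, Kif15, Ccnb2 and Cks2) and 3 not called (Cdk1, Cdc20 and Ube2c), since they show how the elements are placed in called and uncalled genes. The stretch of Cks2 holds CCAAT boxes and no CHR. Each is written 5′ to 3′ along the gene, with CHR and CCAAT letters in capitals. A match on the other strand appears as its reverse complement, TTCAAA or ATTGG.
Kif11: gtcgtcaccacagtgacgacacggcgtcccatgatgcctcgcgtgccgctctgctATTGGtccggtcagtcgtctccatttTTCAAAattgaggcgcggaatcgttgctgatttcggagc
Kif15: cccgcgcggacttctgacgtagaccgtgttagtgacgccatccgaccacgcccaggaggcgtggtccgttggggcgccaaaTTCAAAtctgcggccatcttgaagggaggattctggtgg
Ccnb2: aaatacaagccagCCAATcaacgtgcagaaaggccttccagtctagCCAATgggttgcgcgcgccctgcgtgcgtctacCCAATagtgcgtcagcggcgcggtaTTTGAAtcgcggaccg
Cks2: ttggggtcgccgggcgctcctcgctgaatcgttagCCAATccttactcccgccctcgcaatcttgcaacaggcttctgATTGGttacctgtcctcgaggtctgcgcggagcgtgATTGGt
Cdk1: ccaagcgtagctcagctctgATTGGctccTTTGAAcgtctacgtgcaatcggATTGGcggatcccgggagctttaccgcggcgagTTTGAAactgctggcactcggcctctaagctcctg
Cdc20: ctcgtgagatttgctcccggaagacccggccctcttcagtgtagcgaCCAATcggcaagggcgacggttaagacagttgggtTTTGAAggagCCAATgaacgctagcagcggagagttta
Ube2c: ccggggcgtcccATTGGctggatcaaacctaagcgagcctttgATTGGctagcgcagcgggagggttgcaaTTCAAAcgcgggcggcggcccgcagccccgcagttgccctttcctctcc
In the order shown they lie at chr19:37376282-37376401 (plus strand), chr9:122950981-122951100 (plus strand), chr9:70421535-70421654 (minus strand), chr13:51645132-51645251 (plus strand), chr10:69352893-69353012 (minus strand), chr4:118437324-118437443 (minus strand) and chr2:164769829-164769948 (plus strand).

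A CHR was found on either strand in 26 of the 33 windows (78.8 percent), against 14.1 percent of the 10877 windows of genes tested and 19.4 percent of all 27025 symbols with a window. Within 50 bases of it, 24 of the 33 windows (72.7 percent) held a CHR, against 3.48 percent of windows of genes tested. The 26 CHR matches in that range began between position -29 and position 40, counting the start site as 0. A CCAAT box was found in 24 windows (72.7 percent, against 38.5 percent of genes tested), and 8 windows (24.2 percent, against 4.98 percent) held 3 or more. Of 58 CCAAT matches 55 lay wholly before the start site. Ccnb2 shows several boxes ahead of a CHR, with CCAAT boxes beginning at positions -87, -54 and -21 and a CHR at position 4. Another CHR in the window of Ccnb2, at -167, lay ahead of these boxes. Kif11 had a CCAAT box at -45 and a CHR at -19, both on the other strand. Both elements stood in 21 windows (63.6 percent, against 5.91 percent of genes tested), and neither in 4, those of Nuf2, Mad2l1, Birc5 and Nusap1. E2F-type letters (TTTCGCGC, TTTGGCGC or TTCCCGCC, either strand) were found in 2 windows, those of Kif15 and Cdk1 (6.06 percent, against 5.39 percent of genes tested). In the window of Kif15 these letters lay beside the CHR without overlapping it.

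Windows of called and uncalled genes were compared by count, with no test. A CHR was in 7 of the 10 windows of called genes (70.0 percent) and in 19 of the 23 windows of genes not called (82.6 percent), and a CCAAT box in 6 and 18. These matches are letters in a window, and binding at them was not measured.

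**Figure D2:**
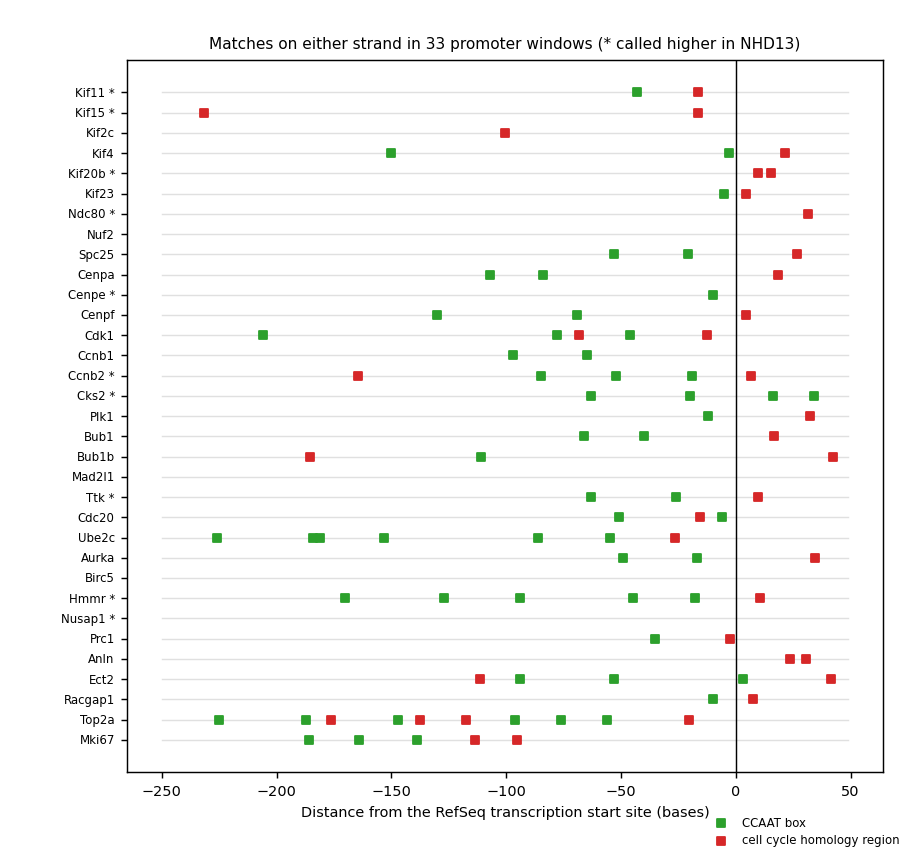
Each row is the promoter window of 1 of 33 genes and the x axis is the distance in bases from the RefSeq start site. Red squares are CHR matches and green squares CCAAT boxes on either strand, and asterisks mark genes called higher in NHD13. Red squares gather within 50 bases of the start site in 24 rows, with green squares mostly before it.

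Among the kinesin motors, 3 of 7 rose, against 2.07 percent of all genes tested. The log2 fold changes ran from 0.13 to 1.53. Kif11 encodes the motor that pushes spindle poles apart. It was at 68.9 and 58.5 CPM in WT and 193 and 175 in NHD13. Its log2 fold change was 1.53 ± 0.12 (SE), and its adjusted p of 0.0138 was the smallest of the 40. Kif15, which backs up Kif11 in keeping the spindle bipolar, was at 19.4 and 19.5 CPM in WT and at 64.6 and 47.5 in NHD13 (1.53 ± 0.18, adjusted p 0.0295). Kif20b, which acts in cytokinesis, was at 39.6 and 35.3 CPM in WT and 85.2 and 66.7 in NHD13 (1.02 ± 0.16, adjusted p 0.0431). In these 3 genes the lower NHD13 library stood well above the higher WT library. Kif2c, a motor that takes microtubules apart at centromeres, had a fold change of like size (1.46 ± 0.29) but uneven WT libraries, at 24.6 and 14.0 CPM against 54.8 and 51.3 in NHD13, and was not called (adjusted p 0.0627). Kif23, a subunit of the centralspindlin complex of the cleavage furrow, was at 59.8 and 48.1 CPM in WT and 62.0 and 55.7 in NHD13, so that the groups overlapped (0.13 ± 0.15, adjusted p 0.628). Kif4 had 0.91 ± 0.18 and Kif20a 0.67 ± 0.14, neither called.

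Of 7 kinetochore and centromere genes 2 rose, against 2.07 percent of all genes tested. In all 7 both NHD13 libraries lay above both WT libraries, which held for 30.1 percent of all genes tested. Ndc80, which with Nuf2, Spc24 and Spc25 forms the complex that grips microtubules, was at 24.8 and 22.8 CPM in WT and 56.0 and 50.8 in NHD13 (1.17 ± 0.13, adjusted p 0.0230). Its 3 partners had log2 fold changes of 0.97 (Nuf2), 0.92 (Spc24) and 0.81 (Spc25) with adjusted p from 0.0530 to 0.0961, so 1 of the 4 subunit genes of the complex passed. Cenpe, a kinetochore motor that brings chromosomes to the spindle equator, was at 33.1 and 28.7 CPM against 80.7 and 63.5 in NHD13 (1.22 ± 0.16, adjusted p 0.0343). Cenpf, a large kinetochore protein, missed the threshold narrowly at 40.7 and 33.8 CPM in WT and 80.8 and 64.7 in NHD13 (0.97 ± 0.16, adjusted p 0.0501). Cenpa, the histone variant that marks centromeres, was at 43.0 and 27.5 CPM in WT and 61.9 and 60.1 in NHD13 (0.79 ± 0.23, adjusted p 0.116).

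Among the cyclins and kinases of mitotic entry 2 of 7 rose, against 2.07 percent of all genes tested. Ccnb2, a B-type cyclin, was at 55.0 and 39.4 CPM in WT and 107 and 102 in NHD13 (1.15 ± 0.18, adjusted p 0.0440). Cks2, a small protein that binds Cdk1 complexes, was at 39.9 and 33.7 CPM against 76.5 and 64.2 (0.93 ± 0.15, adjusted p 0.0451). Both were close to the threshold, and with library totals only in place of TMM scaling they missed it, as did Tpx2, with adjusted p of 0.0577, 0.0519 and 0.0521. Cdc25c, the phosphatase that switches Cdk1 on, was the gene of lowest counts, at 10.6 and 6.27 CPM in WT and 22.8 and 19.7 in NHD13 (1.33 ± 0.29, adjusted p 0.0747). Plk1, a kinase needed at many steps of mitosis, stood at 33.8 and 14.0 CPM in the WT libraries, against 39.9 and 41.2 in NHD13 (0.76 ± 0.41, adjusted p 0.307). The WT libraries of Plk1 thus differed more from each other than the higher of them did from NHD13. Cdk1 itself (0.68 ± 0.18), Ccna2 (0.67 ± 0.18) and Ccnb1 (0.75 ± 0.29) were not called, with adjusted p from 0.101 to 0.184.

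In the spindle checkpoint and its target, the APC/C, 1 of 6 genes rose, against 2.07 percent of all genes tested. Ttk, a kinase at the head of the checkpoint also known as Mps1, was at 16.1 and 15.5 CPM in WT and 30.8 and 28.7 in NHD13 (0.92 ± 0.13, adjusted p 0.0395), with close libraries in both groups. Bub1, another checkpoint kinase, had a fold change of 1.53 ± 0.31 and its partner Bub1b 1.03 ± 0.20. Neither was called, with adjusted p of 0.0662 and 0.0603. Bub1b stood at 48.3 and 36.0 CPM in WT and 96.5 and 76.0 in NHD13. Cdc20, which the checkpoint holds back and which activates the APC/C, was at 37.9 and 22.1 CPM in WT and 40.9 and 53.5 in NHD13 (0.65 ± 0.30, adjusted p 0.238). It was 1 of 4 genes, with Aurka, Ccnb1 and Plk1, that were not higher in NHD13 library 1 than in NHD13 library 2. Mad2l1, a checkpoint protein, had 0.89 ± 0.20 and Ube2c, the ubiquitin-conjugating enzyme of the APC/C, 1.10 ± 0.34 (adjusted p 0.0754 and 0.127).

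Of the Aurora kinases and their partners 1 of 4 rose, against 2.07 percent of all genes tested. Tpx2, which carries Aurora A to spindle microtubules, was at 55.2 and 43.3 CPM in WT and 99.0 and 94.1 in NHD13 (0.97 ± 0.14, adjusted p 0.0408). Aurora A itself, encoded by Aurka, was at 31.5 and 18.3 CPM in WT and 39.3 and 44.2 in NHD13 (0.74 ± 0.28, adjusted p 0.176). Aurkb, the kinase of the chromosomal passenger complex, was at 36.7 and 25.4 CPM against 67.4 and 52.7 (0.95 ± 0.23, adjusted p 0.0850), and its partner Birc5, also known as survivin, had 0.88 ± 0.30. Both NHD13 libraries lay above both WT libraries in all 4 genes, which held for 30.1 percent of all genes tested.

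Of 4 microtubule-binding spindle proteins 2 rose, against 2.07 percent of all genes tested. Hmmr, which helps to build spindle poles, was at 37.6 and 31.7 CPM in WT and 78.7 and 71.5 in NHD13 (1.11 ± 0.13, adjusted p 0.0286). Nusap1, which bundles microtubules around chromosomes, was at 69.3 and 66.1 CPM in WT and 159 and 119.5 in NHD13 (1.04 ± 0.16, adjusted p 0.0434). Prc1, which cross-links microtubules of the central spindle, was at 84.3 and 62.5 CPM against 149 and 131 (0.93 ± 0.17, adjusted p 0.0574). Dlgap5, a microtubule-stabilizing protein, was at 18.6 and 11.5 CPM against 36.1 and 33.2 (1.20 ± 0.26, adjusted p 0.0706). In all 4 the lower NHD13 library was above the higher WT library, which held for 30.1 percent of all genes tested.

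None of the 3 cytokinesis regulators was called by edgeR, which called 2.07 percent of all genes tested higher. Of the 3, 1 (Racgap1) was at an unadjusted p under 0.05, against 3983 of all 14853 genes tested. DESeq2 called 1 higher (8.2 percent of all genes tested) and limma-voom 0 (1.8 percent). The log2 fold changes of these 3 genes were the lowest of the roles in the median, at 0.66. Racgap1, the partner of Kif23 in centralspindlin, was at 60.6 and 37.9 CPM in WT and 86.8 and 84.5 in NHD13 (0.80 ± 0.23, adjusted p 0.118). Anln, an actin-binding protein of the cleavage furrow, was at 46.5 and 18.2 CPM in WT and 42.5 and 34.6 in NHD13, both NHD13 libraries falling between the WT libraries (0.25 ± 0.45, adjusted p 0.765). Ect2, which activates RhoA at the furrow, had 0.66 ± 0.39. Of the chromosome genes Top2a, the topoisomerase that untangles sister chromatids, was at 258 and 223 CPM in WT and 610.3 and 428 in NHD13 (1.11 ± 0.20, adjusted p 0.0530). Mki67, which coats mitotic chromosomes and encodes the proliferation antigen Ki-67, was at 84.5 and 74.8 CPM against 229.8 and 152 (1.26 ± 0.22, adjusted p 0.0516). Both genes were close above the threshold by edgeR. The log2 fold changes of Top2a and Mki67 were 0.84 and 0.94 without NHD13 library 1, and 1.35 and 1.53 without NHD13 library 2. They were 1.21 and 1.35 without WT library 1, and 1.01 and 1.18 without WT library 2.

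**Figure D3:**
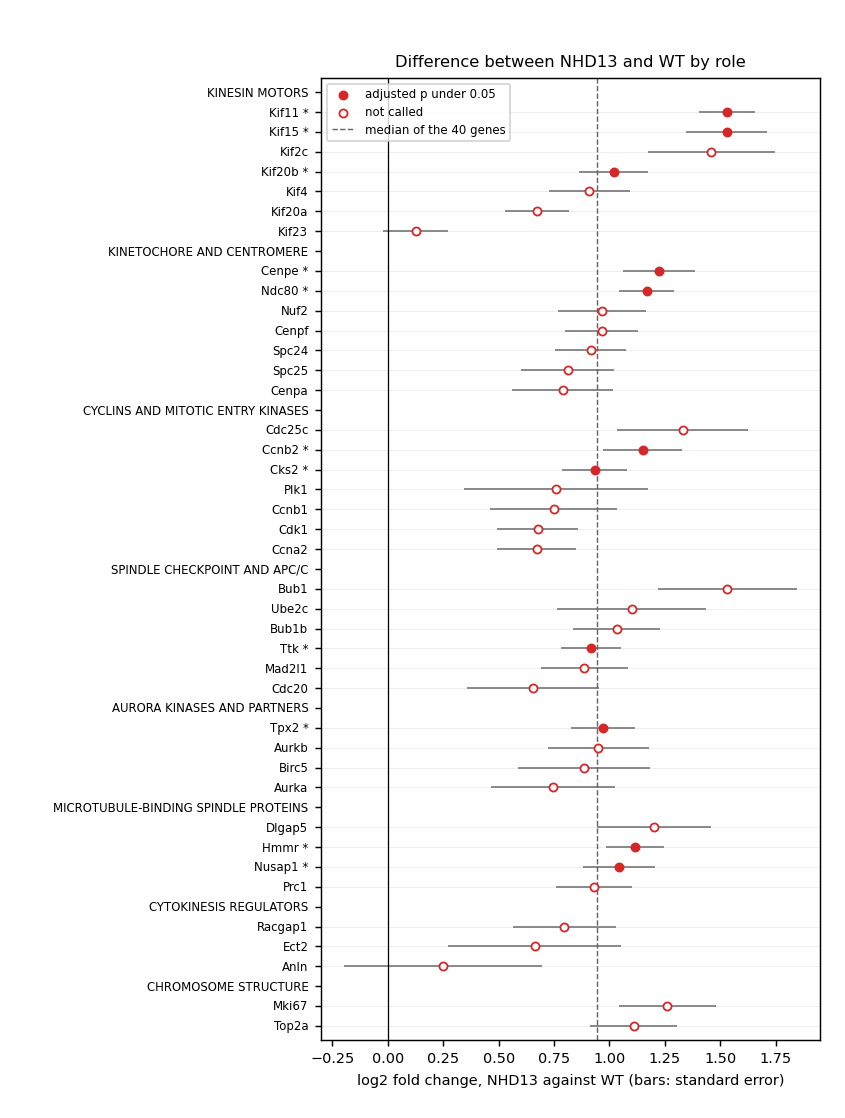
Each row is a gene and the x axis gives the log2 fold change of NHD13 against WT, with bars for the standard error. Filled points were called at an adjusted p under 0.05 and open points were not. All 40 points lie above 0, and the dashed line marks their median of 0.94.

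The libraries of a group differed in these genes in a common direction. WT library 1 was above WT library 2 in 39 of the 40 genes, Kif15 being the exception, against 50.5 percent of all genes tested, and the median ratio was 1.35 against 1.002. NHD13 library 1 was above NHD13 library 2 in 36 of the 40 (47.8 percent of all genes tested), with a median ratio of 1.16. The gap within WT was not the same for all. It was largest in Anln (2.55-fold), Plk1 (2.41), Ect2 (2.17) and Ube2c (2.01), and 14 genes had a ratio above 1.5. It was smallest in Kif15 (0.995), Ttk (1.04), Nusap1 (1.05) and Ndc80 (1.09). None of the 11 called genes had a ratio above 1.40, and their median was 1.15 against 1.44 in the 29 genes not called. The test sets a difference against the spread between libraries. Within NHD13 the widest ratios were those of Mki67 (1.51), Bub1 (1.49) and Top2a (1.43), and Cdc20 was lower in library 1 (0.765).

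**Figure D4:**
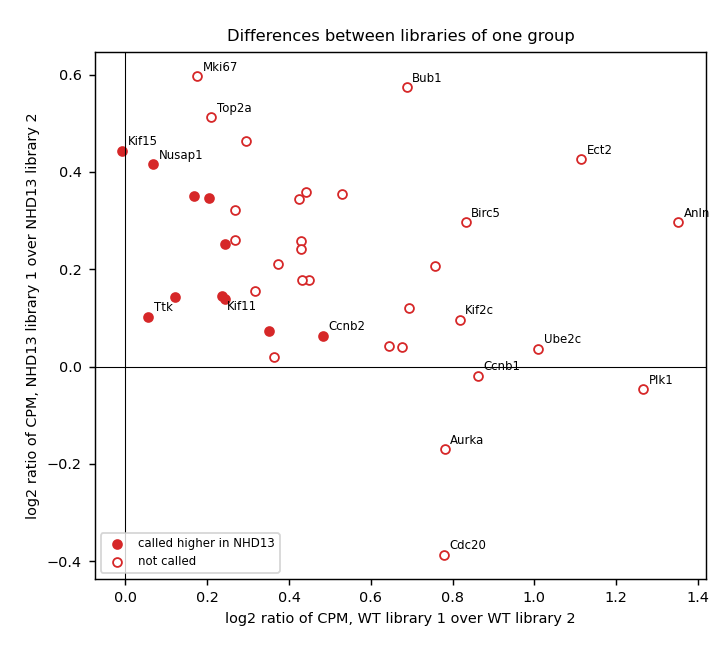
Each point is 1 of the 40 genes, with the log2 ratio of WT library 1 over WT library 2 on the x axis and that of NHD13 library 1 over NHD13 library 2 on the y axis. Filled points were called higher in NHD13. Filled points lie towards the left, and Anln, Plk1, Ect2 and Ube2c lie farthest to the right.

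Levels were compared between genes per length, as CPM divided by the length in kilobases of the GENCODE transcript paired with the RefSeq accession, which assumes even coverage. In WT, Cks2 (57.6 and 48.7 CPM per kilobase) and Top2a (49.4 and 42.8) were the highest, ahead of Ccnb2 (36.0 and 25.7) and Ube2c (40.8 and 20.3). Cenpf (3.65 and 3.03), Kif4 (4.29 and 3.31) and Cenpe (4.18 and 3.63) had the lowest means. Kif15 (3.985 and 4.006) lay within the range of the WT libraries of both Kif4 and Cenpe, so no order is read among Kif4, Cenpe and Kif15. In NHD13 Cks2 (110.5 and 92.8) and Top2a (117 and 81.9) were again first and did not differ beyond their spread, nor did Ccnb2 from Ube2c in WT.

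Other genes of the pathway were taken from lists of their own. Across 7 lists with 167 genes tested, 14 rose and 0 fell by edgeR, against 2.07 percent of all genes tested called higher and 2.22 percent lower. Against the same 2.07 percent, the called share by list was 30.8 percent for condensin and chromatid separation, 17.2 percent for other kinetochore and centromere genes, 6.67 percent for the APC/C, 5.88 percent for S phase, 5.41 percent for other spindle and cytokinesis genes and 0 percent for the other lists. A share of 1 or 2 genes is a small count, and nothing is read from it. Of 13 genes of condensin and chromatid separation 4 rose, and the list median was 0.95. Ncapg, a condensin subunit, was at 45.3 and 38.8 CPM in WT and 149.9 and 133 in NHD13 (log2 fold change 1.75 ± 0.13, adjusted p 0.0114). Ncapd2, another condensin subunit (1.05 ± 0.13), Cdca5, which helps to hold sister chromatids together (0.93 ± 0.14), and Sgol1, which protects that cohesion (0.95 ± 0.15), also rose. Pttg1, the securin that is degraded before chromatids part, was the gene of this list below 0, at -0.53 ± 0.13 (adjusted p 0.0838). Of 29 other kinetochore and centromere genes 5 rose, with a median of 0.43. Among them were Cenpk (1.34 ± 0.14), Casc5, the scaffold that recruits checkpoint kinases (1.54 ± 0.19), Nsl1 (0.93 ± 0.14) and Hjurp, the chaperone that loads Cenpa (0.52 ± 0.09).

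Of 37 other spindle and cytokinesis genes 2 rose, Spag5 (1.15 ± 0.18) and the furrow kinase gene Cit (1.57 ± 0.26), and 36 were above 0 with a median of 0.68. Of 15 APC/C subunits and regulators 1 rose, Fbxo5, which encodes the inhibitor Emi1 (0.95 ± 0.16, adjusted p 0.0490). The 8 Anapc subunit genes, none of them called, ran from -0.27 ± 0.10 (Anapc11) to 0.16 ± 0.08 (Anapc5), and the list median was 0.04. Of 34 S phase genes 2 rose, Ccne2 (1.16 ± 0.16) and Pold1 (0.71 ± 0.12), with a median of 0.63. Among 10 centriole and centrosome genes and 29 regulators of mitotic entry and transcription edgeR called 0. At an unadjusted p under 0.05 there were 6 of the former and 11 of the latter, against 3983 of all 14853 genes tested. DESeq2 called 4 of the former higher, and 7 of the latter higher and 1 lower. Its shares over all genes tested were 8.2 percent higher and 9.33 percent lower. Limma-voom called 0 of the former and 1 of the latter. Stil (1.15 ± 0.23) and Plk4 (0.77 ± 0.16) had the smallest p of the former and Cks1b (0.69 ± 0.12) and E2f2 (2.04 ± 0.36) of the latter. Foxm1 and Mybl2, named after their values were seen, encode activators of late cell cycle genes and had 1.02 ± 0.36 and 0.60 ± 0.54, with adjusted p of 0.159 and 0.527. Mybl2 had uneven WT libraries, at 14.3 and 4.90 CPM, as Plk1 did.

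By library, the median log2 level of the 40 genes relative to each gene's mean was -0.28 and -0.71 in WT and 0.61 and 0.37 in NHD13. S phase genes had -0.26 and -0.34 in WT and 0.49 and 0.06 in NHD13. NHD13 library 2 thus lay 0.37 above the mean in mitosis genes and 0.06 in S phase genes, a difference that was not tested.

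**Figure D5:**
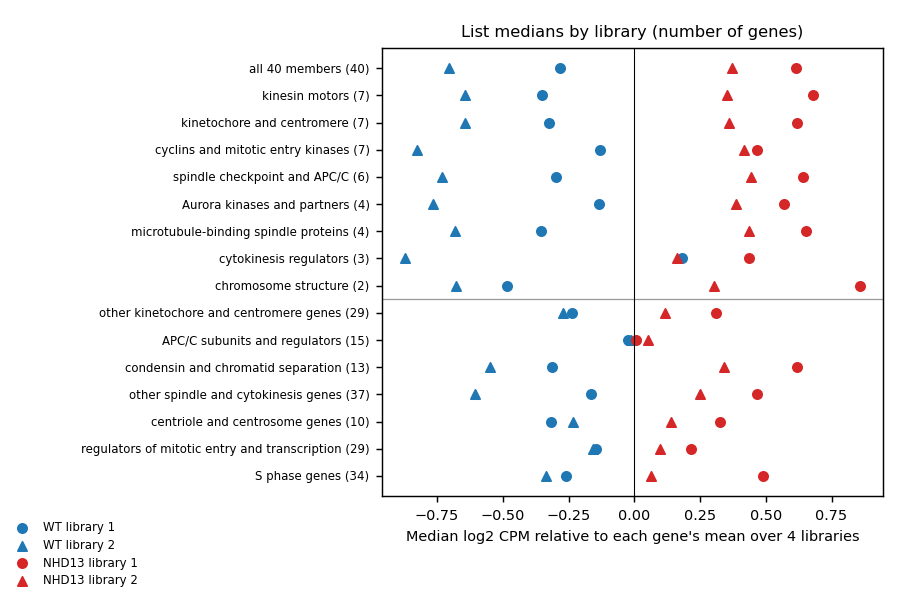
Each row is a list, with its number of genes tested, and the x axis gives the median log2 CPM relative to each gene's mean over the 4 libraries. Circles are library 1 and triangles library 2, with WT in blue and NHD13 in red. The 40 genes are at -0.28 and -0.71 in WT and at 0.61 and 0.37 in NHD13, and APC/C subunits and regulators are near 0 in all 4 libraries.

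Markers of the sorted cells and of others that the sort could hold differed between the same libraries. Of 14 stem cell markers 4 fell and 0 rose (Hlf, Ctnnal1, Hoxb5 and Mllt3), with a summed level of 5281 and 5583 CPM in WT and 3409 and 3736 in NHD13, and Kit was at 991 to 1271 CPM in all libraries. Cd48 was at 4.83 and 5.06 CPM in WT and 267 and 223 in NHD13. Of the genes for proteins the sort selected against, Cd34 was at 119.93 and 138 CPM in WT and 51.6 and 21.4 in NHD13, and Flt3 at 10.4 and 15.4 in WT and 58.96 and 4.33 in NHD13. The 8 early myeloid progenitor genes summed to 355 and 342 CPM in WT and 1353 and 929 in NHD13. Mpo was at 48.97 and 39.2 CPM against 709 and 587. EdgeR called 4 of the 8 higher, and 7 of the 8 had a log2 fold change above 0. Prtn3 went the other way, with 229 and 165 CPM for NHD13 against 270 and 273 for WT. Its log2 fold change was -0.47 ± 0.17, and edgeR did not call it (adjusted p 0.171). Prtn3 made up most of the WT sum of this list. The 12 late granulocyte genes summed to 353 and 298 CPM in WT and to 3042 and 403 in NHD13, and 8 T and NK genes to 18.3 to 20.6 CPM in the other libraries and 196 in NHD13 library 2. Erythroid genes summed to 243 to 362 CPM, megakaryocyte genes to 383 to 468, B lineage genes to 74.9 to 98.0, mast cell and basophil genes to 26.1 and 8.02 in WT and 139 and 118 in NHD13, macrophage genes to 12.1 to 45.4 and stroma and endothelium genes to 94.5 to 184. In the mast cell and basophil list 2 of 5 genes tested were above 0, and the median log2 fold change was -0.75. The higher NHD13 sum thus came from 2 genes. EdgeR called 0 of the 5 higher and 1 lower, against 2.07 and 2.22 percent of all genes tested. Of all these markers 1, in the mast cell and basophil list, was at 0 in every library. The median of the 40 genes was 0.84 without NHD13 library 1, which held most of the late granulocyte RNA, and 1.08 without NHD13 library 2, which held most of the T and NK RNA. The part of Cd48-positive and early myeloid cells in the difference was not tested.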

How the data were processed

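RNA from sorted marrow cells was made into libraries with a SMARTer low-input kit from 10 ng of RNA and sequenced as paired 75-base reads, per the labels' protocols. Bowtie 0.12.2 and build mm9 are named in the submitters' processing notes. For the counting program, its strand setting and the treatment of multiply aligned reads the entry is: not given in the sources used here. The authors deposited whole-number counts per RefSeq transcript, without normalisation, in 1 table per library.

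The whole table was fitted with edgeR 4.0.16 (R 4.3.3), with 1 transcript per symbol, the default filter on low counts, TMM scaling, a robust quasi-likelihood fit comparing NHD13 with WT, and Benjamini-Hochberg adjustment over all genes tested. CPM are counts over TMM-scaled library totals. A standard error is the log2 fold change divided by the square root of F. DESeq2 1.42.0, limma-voom (limma 3.58.1), other scalings and filters, summed transcripts, a replicate block and leaving out each library were alternatives, and a crossed block was added after seeing the data. The fit was tested on simulated data. The genes and lists were chosen with earlier results of these data known. Values in every library are given for called genes and, per role, for the uncalled genes of smallest and largest p. Pathway genes named are up to 3 called per list with the smallest p, or else the 2 with the smallest p. Hjurp, Sgol1, Pttg1, Foxm1, Mybl2, Anapc5 and Anapc11 and, among markers, all but the 2 highest per list were named after their values were seen. The values of 1 pathway gene are not reported here.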

Additional observations from a re-analysis of the deposited data

How the results depend on the processing

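The 40 genes had at least 229 counts in each library, and there were 2 libraries per group. The number called higher was 11, and also 11 with DESeq2 size factors, limma-voom or a fit that was not robust, and 8 with library totals only. It was 22 with no filter, 17 with at least 1 CPM in both libraries of a group, 34 by DESeq2 and 6 with transcripts summed, and the cause was not tested. Leaving out 1 library gave 0 to 12, with fewer samples. For the pathway lists, where 14 were called higher, these numbers were 9 with library totals only, 43, 30, 75, 5 and 0 to 30, and DESeq2 called 4 lower. The median log2 fold change of the 40 genes was 0.78 to 1.19 when a library was left out. Kif23 (-0.022) and Anln (-0.27) were below 0 without WT library 2, and their highest values when a library was left out were 0.29 and 1.07. Of the fold changes of single genes of the 40 under each alternative, 459 kept their direction and their side of the threshold, 55 lost the call, 44 gained one and 2 turned.

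Over 14853 genes, the difference between libraries 1 and 2 in WT correlated with that in NHD13 at r = -0.206, and over the 40 genes at r = -0.351. Library 1 was nevertheless above library 2 in 39 of the 40 genes in WT and in 36 in NHD13. The correlation cannot decide whether the replicate numbers of the titles pair the libraries, since RNA held mostly by 1 library also enters it. With the number as a replicate block 1 of the 40 genes (Kif11) and 1 pathway gene were called higher. With the crossed pairing as a block, added after seeing the data, 8 of the 40 and 7 pathway genes were called.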

Other observations

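Of the 40 genes 12 had more than 1 transcript in the tables, and in 11 of these the transcripts differed in counts. The widest gap was that of Ttk, whose transcript with the lowest total had 89.6 percent of the counts of the highest, so the choice of transcript moved levels little. None of the 40 shared all its counts with another symbol.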
